A study of Homo sapiens with 22 samples.

Results

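Long intergenic noncoding RNAs are transcripts that code for no known protein and that lie, for the most part, between protein-coding genes. Those without a known function receive a symbol made of LINC and a number. The LINC RNAs described here were the rows with such a symbol whose mean reached at least 1 CPM, a count scaled by the library total, in at least 1 of the 11 groups of libraries, after mitochondrially encoded rows were removed. This left 262 of 2131 LINC rows, in a table of 60240 genes. These 262 RNAs were chosen by their group means, so their highest levels are given as a description. Of the other LINC rows, 927 had 0 counts in every library and 942 had some counts. The RNAs just inside the limit were LINC00487 at 1.002, LINC01869 at 1.003 and LINC02302 at 1.01 CPM in their highest group. LINC02532 at 0.992, LINC01738 at 0.973 and LINC01625 at 0.958 CPM were just outside.

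As background, some long noncoding RNAs stay at the locus that makes them and affect its chromatin or a neighbouring gene, and others act elsewhere in the nucleus or bind proteins and small RNAs in the cytoplasm. Many are made in a narrow set of cell types and at lower levels than mRNA. Blood cell formation is a well-studied setting, since stem cells, granulocytes, megakaryocytes and lymphocytes each make RNAs of this class that the others lack. For most LINC RNAs named here no function is described in the text, because none is known with certainty.

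The cells were haematopoietic progenitors grown out of the established embryonic stem cell line H1 (human), and the sample titles call the line doxee17. In the DOX arm doxycycline drove ectopic MYC, a transcription factor that promotes growth, and libraries were made on days 12, 14, 16, 18 and 20. The UT arm had no doxycycline and was sampled on those days and on day 10. Each of the 11 groups had 2 libraries of poly(A)-selected RNA, 22 in all. The same line served both arms, and no group had doxycycline without ectopic MYC, so effects of the drug and of MYC cannot be told apart. The labels do not say that replicates were separate cultures, so each p-value speaks to the spread between 2 libraries of a group, and that spread may be technical. Because RNA came from bulk samples, fewer cells of a type and less RNA per cell cannot be told apart.

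Estimated counts without mitochondrially encoded genes were 7591475 to 46973174 per library, lowest on UT day 20, where 1 CPM corresponds to 7.59 and 9.78 counts in the 2 libraries. The mitochondrially encoded share of all counts rose from 8.92% on UT day 10 to 72.7% on UT day 20, and was 57.0% on DOX day 20. All 8 progenitor markers, SPN and PTPRC among them, were present in all libraries. From UT day 10 to UT day 20, 5 of the 8 were called higher and 3 lower by the test described below. Their median log2 change was 0.668. CD34 went from a mean of 174 CPM on UT day 10 to 7.90 CPM on UT day 20. KIT went from 155 to 7.30 CPM, while PTPRC went from 24.0 to 63.4 CPM. Of the 5 pluripotency markers, POU5F1, NANOG and SOX2 did not pass 1 CPM in any library, while LIN28A was at a mean of 264 CPM and DPPA4 at 42.8 CPM on UT day 10, and at 0.144 and 16.9 CPM on UT day 20. Summed markers of mast cells and eosinophils went from 43.4 CPM on UT day 10 to 28100 on UT day 20, with 369 and 13600 CPM on DOX days 12 and 20. All 4 of these markers were lower in DOX in the averaged comparison. The 5 fibroblast markers summed to 810 CPM in UT day 16 replicate 2, against group means of 17.3 to 62.0 CPM outside UT day 16. COL3A1, a collagen of fibroblasts, was at 467 CPM in that library and at 1.90 CPM in the other UT day 16 library. MYC was at 390 and 375 CPM on DOX day 12 against 203 and 194 on UT day 12. On day 20 its DOX libraries, at 78.5 and 45.6 CPM, overlapped the UT libraries at 54.3 and 44.9 CPM. Levels of single genes by library are CPM scaled by TMM, a factor that evens out composition between libraries, whereas limits in CPM and counts of RNAs past a limit use unscaled CPM.

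Promoter sequence was looked at for the RNAs found in a RefSeq table of windows from 250 bases before to 50 bases after a transcript start (GRCh38.p14), which held 161 of the 262. The E-box CACGTG, the motif that MYC binds with its partner MAX and which reads the same on both strands, was present in 11 of their 179 windows (6.15%) and in 7.26% of all 35116 windows. The letters AGATAA, read by factors of the GATA family, stood on either strand in 12.8% of the LINC windows and 10.3% of all windows. GAGGAA, a motif of the myeloid factor PU.1, stood in 27.4% and 27.9%. These searches do not overlap in their letters. Of the 11 RNAs with an E-box, 6 had a mean of at least 1 CPM over all libraries, of which 2 were higher and 2 were lower in DOX in the averaged comparison below (37.6% and 26.3% of all genes with that mean), and nothing is read from so few. The windows of these 4 are shown as the E-box windows of called RNAs. LINC02284 is added because it stood highest on DOX day 18. Sequences run 5′ to 3′ on the strand of the gene, with the E-box, GATA and PU.1 letters in capitals, TTCCTC being GAGGAA on the other strand. LINC01278 lies on the minus strand at chrX:63561046-63561345, LINC00654 on the minus strand at chr20:5504547-5504846, LINC00685 on the plus strand at chrX:318895-319194, LINC01504 on the plus strand at chr9:72305186-72305485 and LINC02284 on the plus strand at chr14:56310739-56311038.
LINC01278 (higher in DOX): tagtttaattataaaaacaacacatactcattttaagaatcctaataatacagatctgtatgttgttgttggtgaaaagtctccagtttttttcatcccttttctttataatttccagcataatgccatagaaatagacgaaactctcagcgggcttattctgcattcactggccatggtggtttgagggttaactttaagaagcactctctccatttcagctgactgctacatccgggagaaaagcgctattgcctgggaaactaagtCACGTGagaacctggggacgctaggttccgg
LINC00654 (higher in DOX): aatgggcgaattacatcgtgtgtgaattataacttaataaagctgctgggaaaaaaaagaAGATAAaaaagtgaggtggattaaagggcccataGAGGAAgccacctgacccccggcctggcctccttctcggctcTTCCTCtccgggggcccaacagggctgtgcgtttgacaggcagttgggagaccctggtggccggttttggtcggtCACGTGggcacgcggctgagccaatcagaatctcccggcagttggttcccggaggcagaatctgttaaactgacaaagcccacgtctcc
LINC00685 (lower in DOX): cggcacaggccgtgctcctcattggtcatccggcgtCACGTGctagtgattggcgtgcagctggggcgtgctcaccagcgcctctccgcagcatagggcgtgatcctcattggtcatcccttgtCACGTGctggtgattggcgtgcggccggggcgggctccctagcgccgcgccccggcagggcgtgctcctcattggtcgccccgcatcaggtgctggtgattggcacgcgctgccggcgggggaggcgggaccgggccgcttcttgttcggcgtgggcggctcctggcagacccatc
LINC01504 (lower in DOX): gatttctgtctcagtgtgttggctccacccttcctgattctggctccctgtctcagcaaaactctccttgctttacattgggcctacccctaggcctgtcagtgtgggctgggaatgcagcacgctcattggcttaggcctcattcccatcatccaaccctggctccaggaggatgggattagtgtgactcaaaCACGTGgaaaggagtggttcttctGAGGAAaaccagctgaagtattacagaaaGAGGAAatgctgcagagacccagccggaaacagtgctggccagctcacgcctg
LINC02284 (highest on DOX day 18): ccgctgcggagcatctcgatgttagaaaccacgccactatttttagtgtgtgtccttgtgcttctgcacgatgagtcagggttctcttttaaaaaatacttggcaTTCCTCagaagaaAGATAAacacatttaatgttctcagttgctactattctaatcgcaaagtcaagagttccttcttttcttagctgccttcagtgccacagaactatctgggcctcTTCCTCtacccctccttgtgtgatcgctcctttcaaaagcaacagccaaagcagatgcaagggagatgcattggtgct
LINC00685 held 2 E-boxes, LINC01278, LINC00654 and LINC01504 held 1 each, and LINC02284 held none. In the gene annotation GENCODE 29, LINC00685 lies at chrX:320990-321851, downstream of its window, so the 2 sources place its start differently. A match is a string of letters in this window and not a measured binding site.

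Together the 262 LINC RNAs took 0.0998% to 0.134% of the non-mitochondrial counts by group, with the lowest share on DOX day 14 and the highest on DOX day 18. Most were scarce. Only 52 reached 10 CPM in any group, 85 had a highest group between 1 and 2 CPM, and the median of the highest group was 3.34 CPM. In all 11 groups 80 of them were at 1 CPM or more, and 46 reached it in a single group. By gene, 261 of the 262 were found in GENCODE 29 on GRCh38, with a median exonic length of 2518 bases. Of these, 40 overlapped a protein-coding gene, 147 lay within 50 kb of a coding gene and 74 lay farther away. On the opposite strand, 20 had a coding gene start within 2 kb. A copy of at least 300 bases at 98% identity or more elsewhere in the annotated transcripts was found for 32, and 67 shared at least 100 exonic bases with another gene. Since the strand setting of the counting was not given in the sources used here, values of those RNAs are uncertain. Of the RNAs named below, those that share exonic bases include LINC00662, LINC00639, LINC00667, LINC00937, LINC02212, LINC02805, LINC02228, LINC01090 and LINC02246. LINC00654 had a near-identical copy of 343 bases.

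LINC00963 (ENSG00000204054.14, chr9:129483451-129513686), first described in prostate cancer cells, was among the most abundant. It stood at 39.4 and 40.3 CPM on UT day 10 and 57.4 and 59.1 CPM on UT day 20, and at 38.1 and 39.1 CPM on DOX day 12 and 48.4 and 56.0 CPM on DOX day 20. Its averaged DOX against UT difference was -0.07 on the log2 scale (SE 0.06, edgeR adjusted p = 0.35). LINC01089 (chr12:121795267-121803906), whose exons overlap RHOF, ranged between group means of 30.9 and 52.1 CPM, and LINC00667 (chr18:5237826-5246508) between 22.4 and 37.7 CPM. LINC00665 (chr19:36313067-36331718) was higher in both DOX libraries than in both UT libraries on all 5 days. Its UT libraries on days 12 to 20 were between 17.1 and 35.3 CPM, and its DOX libraries between 35.6 and 48.4 CPM. The averaged difference was 0.56 (SE 0.09, edgeR adjusted p = 3.6e-05). Per kilobase of exon, LINC02772 was highest at a mean of 62.1 CPM per kb over the 22 libraries, followed by LINC02506 at 23.8, LINC00685 at 16.7, LINC00342 at 13.3 and LINC02284 at 12.6 CPM per kb. LINC00342 has near-identical copies, so its value is uncertain.

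For tests, RNAs were counted only if their mean over all 22 libraries was at least 1 CPM, a measure that does not use arm or day, which 171 did. The other 91 are described by level alone. Calls are from edgeR's quasi-likelihood test at a Benjamini-Hochberg adjusted p under 0.05 over all 21134 genes tested. They are set beside the 14945 genes that met the same mean. Those genes share this minimum only and were not matched to the LINC RNAs in abundance. Only 52 of the 262 LINC RNAs reached 10 CPM in any group, and fewer counts make a call less likely. The part of abundance in the shares below was not tested. All tests were two-sided, and ± gives the standard error of a log2 difference.

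Through the UT culture, from day 10 to day 20, 57 of the 171 LINC RNAs rose and 40 fell. Of all genes at this mean, 30.6% rose and 42.1% fell. The median log2 change was 0.18 as fitted, and 0.27 with the 10 RNAs that had a group at 0 counts placed at their bounds, against -0.28 for all genes. From DOX day 12 to DOX day 20, 51 rose and 32 fell, beside 29.7% and 36.5% of all genes, with a median of 0.27 against -0.14. Scaling bore on the balance. With library sizes alone, which moved the median change of all 21134 genes from -0.21 to -0.62 in the UT course, 46 rose and 54 fell there. Of all 21134 genes, 4439 rose and 8683 fell with that scaling, and 5730 and 7000 with TMM. In both arms 45 rose (26.3%) and 26 fell (15.2%), and 64 (37.4%) were not called in either, against 24.5%, 32.4% and 18.7% of all genes with that mean. A further 11 rose and 13 fell in UT alone by call (6.43% and 7.60%, against 5.78% and 9.31% of all genes), and 5 and 5 in DOX alone (2.92% each, against 4.74% and 3.83%), which does not show that the arms differed. The day with the highest mean also differed from the bulk of genes. In UT, 24 of 171 (14.0%) were highest on day 10 and 47 (27.5%) on day 20, against 29.8% and 20.3% of all genes with a mean of at least 1 CPM. In DOX, 62 (36.3%) were highest on day 20 and 53 (31.0%) on day 18, against 29.9% and 13.3% of all genes, and 28 (16.4%) on day 12, against 31.6%. These shares are descriptions with no test.

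The plainest risers were LINC00662 and LINC00926. LINC00662 (ENSG00000261824.7, chr19:27684580-27793940) was at 9.34 and 10.4 CPM on UT day 10, 43.6 and 68.2 on day 16, 59.1 and 110 on day 18, and 110 and 162 on day 20. In DOX it was at 11.4 and 11.9 CPM on day 12, 19.8 and 22.9 on day 16, 41.5 and 49.4 on day 18, and 89.7 and 134 on day 20. The rise was 3.79 ± 0.29 in UT (adjusted p = 1.7e-09, edgeR) and 3.26 ± 0.28 in DOX (adjusted p = 1.5e-08, edgeR), on the log2 scale. The arms did not overlap on days 16 and 18, with DOX lower, and overlapped on day 20. LINC00926 (ENSG00000247982.6, chr15:57300365-57307769), known from B lymphocytes, was at 1.60 and 0.992 CPM on UT day 10 and 37.7 and 27.4 on UT day 20. In DOX it went from 1.16 and 1.23 CPM on day 12 to 47.4 and 63.5 on day 20. It was lower in DOX on day 16 (-1.47 ± 0.27, adjusted p = 0.00028, edgeR) and higher in DOX on day 20 (0.77 ± 0.26, adjusted p = 0.036, edgeR). LINC01226, which overlaps TINAGL1, had 0 counts in both UT day 10 libraries and 53 counts on UT day 20, at least 46.0-fold higher with a floor of 3 counts per library. LINC02212 had 0 and 51 counts, at least 44.3-fold higher.

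Values of MALAT1, an abundant RNA held in the nucleus, moved with these late RNAs. It was at 986 and 1006 CPM on UT day 10, 112800 and 154400 CPM on UT day 20, and 49300 and 92840 CPM on DOX day 20. On days 16, 18 and 20 of each arm, replicate 2 was higher than replicate 1 in MALAT1 and also in LINC00662. The mitochondrially encoded share given above rose over the same days. The part of both in these results was not tested.

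Among the falling RNAs, LINC00654 (chr20:5496067-5504613) was at 25.8 and 24.0 CPM on UT day 10, 23.5 and 23.7 on day 12, and 2.23 and 2.08 on day 14. In DOX it was at 23.5 and 26.7 CPM on day 12, 7.45 and 11.6 on day 14, and 3.08 and 2.01 on day 16. The drop thus lay between days 12 and 14 in UT and was spread to day 16 in DOX, and on day 14 the arms differed by 2.14 ± 0.36 (adjusted p = 0.00022, edgeR). LINC02805 (chr1:148162360-148186630) was at 30.2 and 28.1 CPM on UT day 12, 5.40 and 8.65 on day 14 and 1.10 and 2.17 on day 18. Its DOX libraries stood at 27.0 and 29.8, 14.1 and 16.0, and 11.8 and 12.9 CPM on the same days. It was higher in DOX by 1.60 ± 0.14 over the days averaged (adjusted p = 1.4e-08, edgeR), and the arms did not overlap on 4 of 5 days. LINC01278 (chrX:63343227-63561071) had the same direction, 0.78 ± 0.13 (adjusted p = 5.1e-05, edgeR). It stood at 6.04 and 4.74 CPM on UT day 14 and 13.4 and 19.2 CPM on DOX day 14. LINC02506 (chr4:31997397-32155406) fell from 23.8 and 26.9 CPM on UT day 10 to 5.90 and 5.35 on UT day 20, and stood at 8.12 and 10.3 CPM on DOX day 20. It was higher in DOX by 0.72 ± 0.07 over the days averaged (adjusted p = 1.7e-07, edgeR).

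With days 12 to 20 averaged, 41 of the 171 LINC RNAs were higher in DOX, 46 were lower and 84 were not called. Of all genes with that mean, 37.6% were higher and 26.3% lower. The median LINC log2 difference was 0.005, also with the 13 RNAs that had a group at 0 counts placed at their bounds, against 0.09 for all such genes. Using days 12 and 14 alone, on which the mitochondrially encoded share was 9.02% to 17.45% in every library, 11 were higher and 27 lower, beside 19.4% and 13.3% of all genes. Without UT day 16 replicate 2, 41 were higher and 44 lower in the average over days. Markers of several cell types moved in the same comparison. All 5 erythroid markers (median 1.55 on the log2 scale) and all 4 endothelial markers (0.665) were higher in DOX. All 4 neutrophil markers (-1.41) and 2 of 3 macrophage markers (-0.659) were lower. Of the 8 progenitor markers, 1 was higher and 5 were lower (-0.303). On day 20 the erythroid markers summed to 40.5 CPM in UT and 233 CPM in DOX, and the neutrophil markers to 3720 and 1540 CPM. The part of these markers in the LINC counts was not tested.

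**Figure D1:**
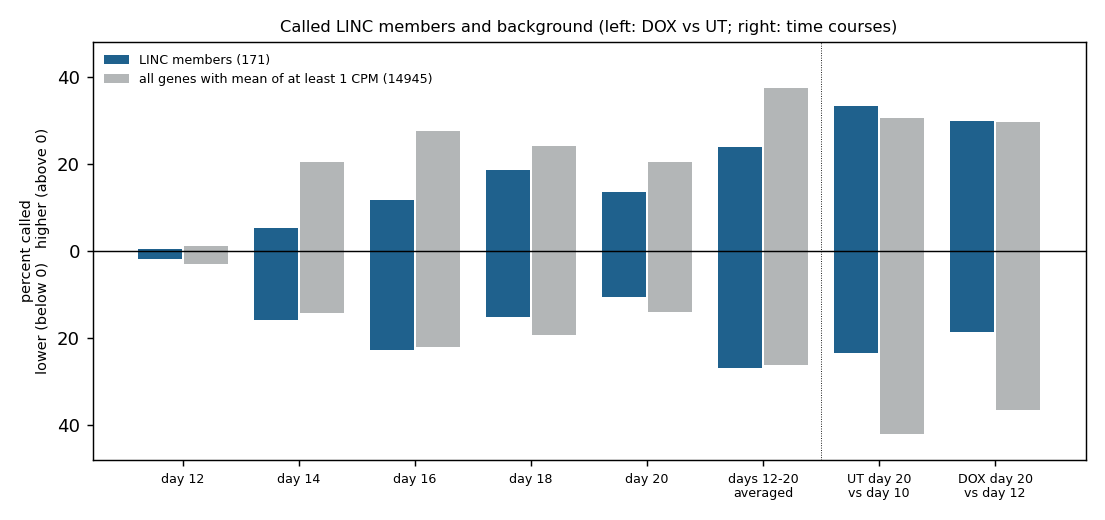
Percent of the 171 counted LINC RNAs (blue) and of the 14945 genes with a mean of at least 1 CPM (grey) called higher (above 0) or lower (below 0) by edgeR at an adjusted p under 0.05. The first 6 pairs of bars compare DOX with UT and the last 2 compare days within an arm. On day 14, 5.26% of LINC RNAs were higher and 15.8% lower, and in the UT course 33.3% rose and 23.4% fell.

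By day, 1 LINC RNA was higher and 3 were lower in DOX on day 12 (all genes with that mean 1.14% and 2.91%), and 9 and 27 on day 14 (20.6% and 14.3%). On day 16, 20 were higher and 39 lower (27.6% and 22%), on day 18, 32 and 26 (24.2% and 19.4%), and on day 20, 23 and 18 (20.5% and 13.9%). With library sizes alone, 44 were higher and 18 lower on day 18, and 31 and 13 on day 20, where the median of all genes tested was 0.32 and 0.29 in place of 0.07 and 0.04. Of all 21134 genes, that scaling had 5773 higher and 2060 lower on day 18, and 5077 and 1425 on day 20. Single libraries bore on these counts too. Leaving out any 1 of the 4 day 12 libraries left 0 higher and 0 or 1 lower. The fit also bore on day 12, so its low counts do not show that the arms were alike. With only the groups compared, more RNAs were called higher and lower that day. DESeq2 and limma-voom each called more lower. These counts are given in the last section. On day 14 the higher count was 5 without UT replicate 2 and 4 without DOX replicate 2. The lower count that day was 16 without UT replicate 2, 9 without DOX replicate 1 and 10 without DOX replicate 2. On day 16 the lower count was 24 and 22 without DOX replicates 1 and 2, and without UT replicate 2, the library with the collagen RNA, 15 were higher and 27 lower. On day 18 the lower count was 14 and 12 without DOX replicates 1 and 2, and on day 20 it was 6 without DOX replicate 1.

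The DOX against UT difference changed from day 12 to day 20, as a contrast in the same fit, for some of the 171 RNAs. It went up in 11 and down in 4, beside 7.15% and 4.01% of all genes with that mean. With library sizes alone 16 went up and 0 down, beside 2406 up and 300 down of all 21134 genes. Leaving out a library left 9 to 14 going up. The number going down was 0 without any 1 of the 4 day 12 libraries, 2 without DOX day 20 replicate 1 and 10 without DOX day 20 replicate 2.

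Several RNAs that were lower in DOX rose late in culture. LINC02503 (ENSG00000249614.2, chr4:103961616-104036923) was under 1 CPM in all libraries up to day 14. In UT it reached 6.18 and 11.9 CPM on day 16, 24.0 and 33.8 on day 18, and 27.8 and 65.9 on day 20. In DOX it stood at 0.328 and 0.614, 0.912 and 3.69, and 4.90 and 17.7 CPM on those days. The arms did not overlap on any of these 3 days, and the averaged difference was -2.22 ± 0.34 (adjusted p = 2.0e-05, edgeR). On days 12 and 14 alone it was -0.59 and not called.

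LINC00323 (ENSG00000226496.3, chr21:41141493-41148133, minus strand), described in endothelial cells, was at 2.85 and 2.69 CPM on UT day 14, 11.9 and 5.23 on day 16, 13.7 and 11.2 on day 18 and 7.91 and 9.36 on day 20. In DOX the values were 0.496 and 0.274, 1.02 and 0.990, 2.56 and 1.56, and 4.06 and 4.97 CPM. DOX was below UT in every library on all 5 days (averaged -2.13 ± 0.23, adjusted p = 3.2e-07, edgeR). LINC00639 (chr14:38749339-38948273) was at 6.24 and 6.93 CPM on UT day 18 and 7.29 and 7.08 on day 20. Its DOX libraries were at 0.171 and 0.246 CPM on day 18 and 0.140 and 1.41 on day 20. At -2.87 ± 0.38 it had the lowest averaged difference of the counted RNAs (adjusted p = 3.8e-06, edgeR). LINC00639 reached 1 CPM in UT groups alone, so this difference is not independent of how it was chosen. LINC00539 (chr13:21303515-21348721) was at 7.45 and 13.6 CPM on UT day 20 and 0.350 and 3.40 CPM on DOX day 20 (averaged -1.95 ± 0.29, adjusted p = 1.3e-05, edgeR; -1.17 and not called on days 12 and 14 alone). LINC01146 (chr14:88024550-88097619) was at 9.78 and 7.75 CPM on UT day 20 and 1.82 and 2.15 CPM on DOX day 20 (averaged -1.80 ± 0.17, adjusted p = 6.9e-08, edgeR). For LINC00639, LINC00539 and LINC01146, too, each DOX library was below each UT library on all 5 days.

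**Figure D2:**
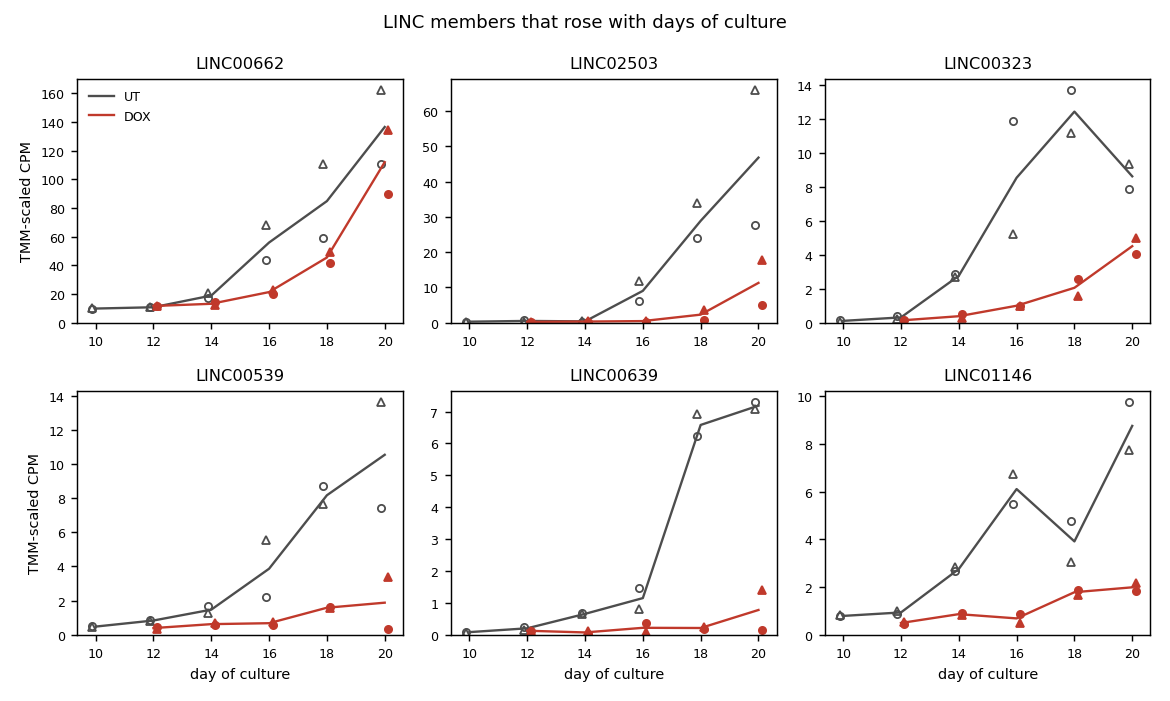
Level in TMM-scaled CPM (vertical, linear) by day of culture (horizontal) for 6 late-rising LINC RNAs, with UT in grey and DOX in red. Points are single libraries (circle replicate 1, triangle replicate 2, offset sideways for clarity) and lines join group means. LINC00639 reached a mean of 7.19 CPM on UT day 20 and 0.774 CPM on DOX day 20, while the arms of LINC00662 overlapped on that day.

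LINC02073 (chr17:51336715-51445802) rose in both arms and later in DOX. It was at 2.61 and 2.18 CPM on UT day 14 and 0.118 and 0.206 CPM on DOX day 14, and at 3.10 and 3.21 CPM on UT day 20 and 3.22 and 2.24 CPM on DOX day 20. The difference was -3.85 ± 0.70 on day 14 (adjusted p = 0.0005, edgeR) and -0.21 ± 0.63 on day 20 (adjusted p = 0.86, edgeR). On day 12 it had 1 count in DOX and 39 in UT, a ratio of 48.8 with a 95% interval of 8.26 to 1976 for counting error. LINC01529 (chr19:35785697-35797902), whose exons overlap ARHGAP33, was at 29.6 and 26.1 CPM on UT day 20 and 10.4 and 11.1 CPM on DOX day 20 (averaged -1.14 ± 0.10, adjusted p = 1.3e-08, edgeR). The 4 others among the 10 lowest averaged differences were LINC01451 at -1.82, LINC00877 at -1.68, LINC00937 at -1.59 and LINC00618, which shares exons with VRK1, at -1.51. Without UT day 18 replicate 2, LINC00877 was at -0.17 and no longer called. LINC00618 was at -0.65 and not called on days 12 and 14 alone.

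LINC00957 (ENSG00000235314.1, chr7:44039171-44042306) was higher in both DOX libraries than in both UT libraries on all 5 days. Its UT libraries on days 12 to 20 lay between 1.55 and 3.65 CPM and its DOX libraries between 4.88 and 9.44 CPM. On days 12, 18 and 20 the UT values were 3.12 and 2.46, 2.20 and 2.01, and 1.55 and 2.54 CPM. The DOX values were 6.20 and 6.48, 9.40 and 7.87, and 6.58 and 9.44 CPM. The averaged difference was 1.43 ± 0.14 (adjusted p = 5.5e-08, edgeR). It was the 1 RNA called higher on day 12, a call that was lost without any 1 of the 4 libraries of that day. LINC00957 shares exonic bases with RASA4CP and has near-identical copies, so its source is uncertain.

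The 10 highest averaged differences went to RNAs that were low or at 0 on late UT days. Fitted log2 values of RNAs with a group at 0 counts depend on the prior count, so folds are given there as bounds. LINC00989 (ENSG00000250334.6, chr4:79492416-79576460), known from megakaryocytes, was at 9.41 and 9.08 CPM on UT day 12, 4.82 and 4.39 on day 14, 0.772 and 1.32 on day 16, 0 and 0.564 on day 18, and 0 in both on day 20. In DOX it was at 6.86 and 6.07, 6.83 and 5.78, 7.45 and 8.84, 6.95 and 8.28, and 1.26 and 3.23 CPM on those days. Both DOX libraries thus stood below UT on day 12, by a difference that was not called, and above UT from day 14 on. The difference was 2.94 ± 0.46 on day 16 (adjusted p = 7.0e-05, edgeR) and 4.51 ± 0.58 on day 18 (adjusted p = 1.2e-05, edgeR). On day 20 it was at least 5.18-fold higher in DOX, with 0 counts in UT set to 3 per library. Over days 12 and 14 alone the difference was -0.03. All 3 megakaryocyte markers were also higher in DOX in the averaged comparison, with sums of 319 CPM on UT day 20 and 568 CPM on DOX day 20. On days 12 and 14, 0 of these markers were called higher and 1 was called lower on each day. Their sums on day 12 were 3240 CPM in UT and 2260 CPM in DOX. The part of these markers in the result was not tested.

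LINC01234 (chr12:113679459-113773683), an RNA studied in solid tumours, was at 2.97 and 3.32 CPM on UT day 10 and 0 in both libraries on UT day 18. In DOX it was at 1.82 and 2.34 CPM on day 18, at least 6.84-fold higher. On day 16 it was at 0.141 and 0.315 CPM in UT and 1.97 and 3.72 CPM in DOX (3.59 ± 0.82, adjusted p = 0.0021, edgeR). LINC01694 (chr21:45593654-45603056) rose in DOX, from 0.797 and 0.956 CPM on day 12 to 2.87 and 3.81 CPM on day 20 (1.92 ± 0.54, adjusted p = 0.0058, edgeR). In UT it was at 0.978 and 1.29 CPM on day 18 and 0 in both libraries on day 20, where DOX was at least 7.71-fold higher. LINC01311 (chr22:19171395-19172839) was at 1.83 and 2.01 CPM on UT day 18 and 0 on UT day 20, and at 1.96 and 1.16 CPM on DOX day 20, at least 3.60-fold higher. On days 12 to 18 it was not called on any single day. LINC01218 (chr4:100812255-100814280), which overlaps the EMCN gene, was at 0 in both UT libraries on days 16 and 18. It was at 0.820 and 1.67 CPM on DOX day 16, at least 6.23-fold higher. LINC01218 was no longer called in the average without DOX day 20 replicate 1 (2.44).

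**Figure D3:**
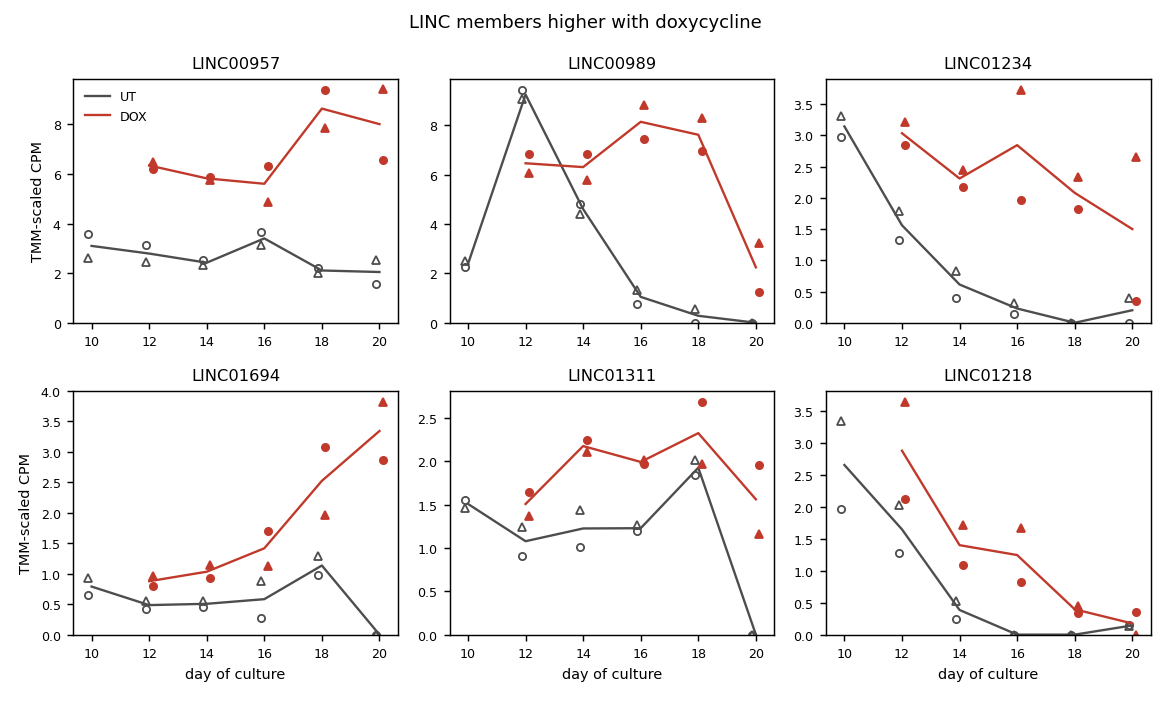
Level in TMM-scaled CPM (vertical, linear) by day of culture (horizontal) for 6 LINC RNAs higher in DOX, drawn as for the late-rising RNAs, with circles for replicate 1 and triangles for replicate 2. LINC00957 stood above UT on each day, while LINC00989, LINC01234, LINC01694, LINC01311 and LINC01218 had at least 1 late UT group at 0.

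Of the other RNAs among the 10 highest, LINC01123 has near-identical copies and went from 3.67 and 0 CPM on UT day 18 to 0 in both libraries on day 20. LINC02575, LINC02228 and LINC01090 were at 1.70 to 3.04 CPM on UT day 12 and under 1 CPM in every library of both arms from day 18 on. Their averaged differences were 2.10, 1.97 and 1.84 as fitted, and 0.89, 0.79 and 0.50 with groups at 0 placed at the floor. On days 12 and 14 alone none of these 3 was called, nor was LINC01123 (1.37), LINC01694 (0.935) or LINC01311 (0.652). LINC02575 was also not called without DOX day 18 replicate 1 (1.60) or DOX day 20 replicate 1 (1.78).

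A pattern with high values on UT day 12 and DOX day 18 was found in 12 of the 171 RNAs (7.02%) and in 1.86% of all genes with that mean, as days of the highest mean in each arm. Taken singly, UT day 12 was the highest UT day for 19.3% of these RNAs and 16.2% of all genes. DOX day 18 was the highest DOX day for 31.0% and 13.3%. This pair of days was not set in advance. A high share for DOX day 18 alone raises the share of the pair, and whether the 2 days go together was not tested. LINC02772 (ENSG00000271736.2, chr1:157280716-157283068) was at 31.8 and 31.4 CPM on UT day 10, 60.1 and 65.4 on day 12, 10.5 and 11.4 on day 18 and 1.55 and 6.95 on day 20. In DOX it was at 45.9 and 51.5 CPM on day 12, 28.6 and 32.2 on day 14, 79.2 and 103 on day 18 and 26.7 and 36.0 on day 20. The arms differed by -0.37 ± 0.29 on day 12 (adjusted p = 0.71, edgeR), 3.06 ± 0.33 on day 18 (adjusted p = 1.4e-06, edgeR) and 2.83 ± 0.39 on day 20 (adjusted p = 3.5e-05, edgeR). The change of the difference from day 12 to day 20 was 3.20 ± 0.49 (adjusted p = 0.00032, edgeR).

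LINC02284 (ENSG00000259719.6, chr14:56310880-56345001), whose promoter window with GATA and PU.1 letters is shown above, was at 21.5 and 17.3 CPM on UT day 12 and 3.79 and 3.62 on UT day 18. In DOX it was at 10.7 and 8.52 CPM on day 12 and 22.3 and 27.6 on day 18. It was lower in DOX on day 14 (-0.95 ± 0.24, adjusted p = 0.0059, edgeR) and higher on day 18 (2.75 ± 0.27, adjusted p = 4.7e-07, edgeR). LINC02384 (chr12:68332888-68451663) was at 17.8 and 16.8 CPM on UT day 12 and 1.71 and 1.69 on UT day 18, against 8.67 and 8.25, and 10.7 and 13.9 CPM in DOX. Its difference was -0.91 ± 0.24 on day 14 (adjusted p = 0.0085, edgeR) and 2.85 ± 0.30 on day 18 (adjusted p = 8.2e-07, edgeR). On day 12 both were called lower, at -1.01 and -1.03, and both calls were lost without any 1 of the 4 libraries of that day. LINC00173 (chr12:116533422-116536518), known from granulocytes, moved less, with 19.3 and 22.3 CPM on UT day 12 and 23.9 and 34.2 on DOX day 18 against 10.5 and 18.5 on UT day 18. Its day 18 difference was 0.99 ± 0.32 (adjusted p = 0.023, edgeR).

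**Figure D4:**
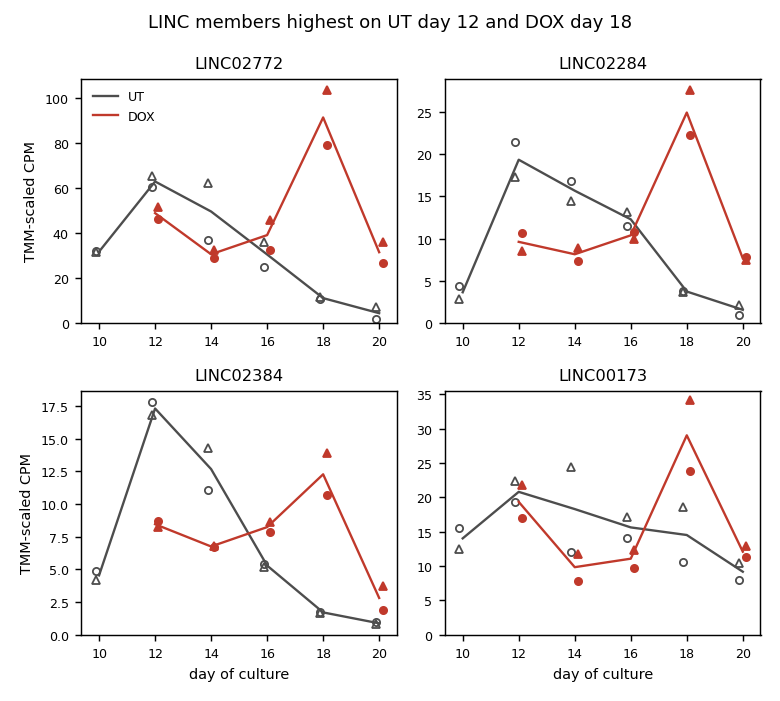
Level in TMM-scaled CPM (vertical, linear) by day of culture (horizontal) for 4 LINC RNAs whose highest UT mean was on day 12 and highest DOX mean on day 18, with UT in grey, DOX in red, circles for replicate 1 and triangles for replicate 2. The DOX day 18 means were 91.2 CPM for LINC02772, 25.0 for LINC02284, 12.3 for LINC02384 and 29.1 for LINC00173.

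In UT groups alone 50 RNAs reached 1 CPM, in DOX groups alone 15, and in both arms 197. The limit itself makes these counts, so they carry no test. UT also had day 10 and the shallowest libraries. The share of all genes that reached the limit in 1 arm was not computed, so nothing about LINC RNAs is read from these counts. Among the UT-only RNAs, LINC02458 (chr12:89010681-89019679) was at 5.74 and 5.75 CPM on UT day 20 and 0.140 and 0.746 CPM on DOX day 20. LINC01825 (chr2:195533035-195538681) was at 7.60 and 3.21 CPM on UT day 20 and 0.210 and 0.166 CPM on DOX day 20. LINC01934 (chr2:181086076-181409321) was at 2.32 and 3.06 CPM on UT day 18 and 0.0570 and 0.246 CPM on DOX day 18. LINC01821 was at 2.48 and 3.21 CPM on UT day 20 and 0.350 and 0.331 CPM on DOX day 20. LINC02246, near NRIP1, was at 1.24 and 3.74 CPM on UT day 20 and 0.630 and 1.24 on DOX day 20. Higher UT levels on these days follow from how these 5 were chosen, and even so the arms of LINC02246 met at 1.24 CPM on day 20. LINC00639 and LINC00092 also reached the limit in UT alone. LINC01694 counts as DOX-only, although its UT day 18 mean was 1.13 CPM once scaled by TMM. The choice favours the arm that reached the limit, so the arm differences given above for LINC00639 and LINC01694 are not independent of it.

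Nearest protein-coding genes were set beside the RNAs as a description. Of the 171 RNAs, 32 overlap a coding gene, 96 lie within 50 kb of one and 43 lie farther away. The nearest gene was among the genes tested for 28, 81 and 30 of them. For these pairs the correlation of log2 levels (CPM + 1) over the 22 libraries had a median of -0.05, 0.20 and 0.15. These libraries share days and arms, so any 2 genes that change with time correlate. Among the 81 pairs within 50 kb, the RNA and its nearest gene were both called in the averaged comparison in 28. The sign was the same in 19 of these. Both were called in 8 of the 28 overlapping pairs, with the same sign in 3. Farther apart, both were called in 6 of the 30 pairs, with the same sign in 2. No share for other pairs of genes was computed. LINC00323 and BACE2, a protease gene 19668 bases away, had a correlation of 0.95, and BACE2 was also lower in DOX (-0.95). LINC01146 and GPR65, a proton-sensing receptor gene 9739 bases away, had a correlation of 0.78. LINC01090 and GULP1, an engulfment adaptor gene it overlaps, had 0.88. LINC02073 and UTP18, a gene for ribosomal RNA processing 38779 bases away, had -0.86, and LINC00926 and TCF12, an E-protein gene 1084 bases away, had -0.88. These 5 pairs were chosen after their values were seen.

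**Figure D5:**
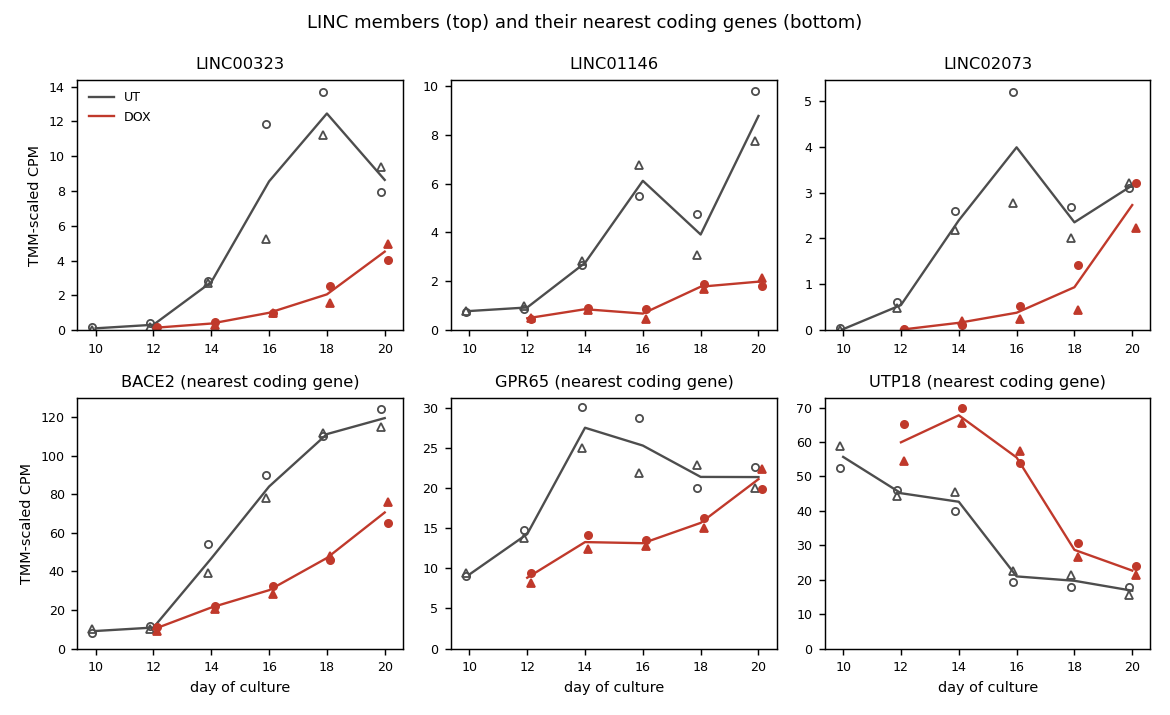
Level in TMM-scaled CPM (vertical, linear, own scale in each panel) by day of culture (horizontal) for 3 LINC RNAs (top) and their nearest protein-coding genes (bottom), with UT in grey, DOX in red, circles for replicate 1 and triangles for replicate 2. BACE2 rose with LINC00323 (correlation 0.95 over 22 libraries), GPR65 with LINC01146 (0.78), while UTP18 went the other way from LINC02073 (-0.86).

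Other RNAs with a known setting were looked at from lists. The embryonic stem cell RNAs LINC00458, LINC01108 and LINC00678 summed to at most 0.137 CPM in any library. LINC01094 (chr4:78645903-78682699), known from macrophages, fell from 21.5 and 18.5 CPM on UT day 10 to 4.34 and 3.34 on UT day 20 (-2.38 ± 0.28, adjusted p = 4.6e-07, edgeR) and stood at 3.22 and 6.05 CPM on DOX day 20. LINC00937, from the granulocyte and monocyte list, rose from 0.527 and 0.713 CPM on UT day 10 to 10.1 and 5.48 on UT day 20 and was at 2.17 and 3.98 CPM on DOX day 20. The megakaryocyte RNA LINC00534 and the lymphocyte RNAs LINC00861 and LINC01857 did not reach 1 CPM in any group. Of 49 named long noncoding RNAs outside the LINC numbering, 41 were tested, of which 16 were higher and 15 lower in DOX over the days averaged, beside 29% and 21.6% of all genes tested. GAS5, a host of small nucleolar RNAs, was at 67.0 and 70.4 CPM on UT day 20 and 150 and 135 CPM on DOX day 20, higher by 0.93 ± 0.06 over the days averaged (adjusted p = 1.9e-10, edgeR). HOTAIRM1, a myeloid RNA of the HOXA cluster, was at 5.28 and 6.01 CPM on UT day 20 and 1.82 and 1.41 CPM on DOX day 20 (averaged -2.52 ± 0.32, adjusted p = 2.1e-06, edgeR).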

How the data were processed

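PolyA-selected RNA of 22 libraries was analysed from expected counts (estimated reads per gene, not normalised) as deposited by the authors. Per the submitters' processing notes, Trim Galore 0.6.5, STAR, Salmon and hg38 were used. The other versions, the annotation release, the strand setting and the day of doxycycline addition are not given in the sources used here. All 22 columns were used. Of the values 88.3% were whole numbers (tolerance 1e-09), and all were rounded. The 37 mitochondrially encoded rows were removed before library sizes were taken.

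The low-count filter filterByExpr with a minimum count of 10, from edgeR 4.0.16, retained 21134 genes and 260 of the 262 LINC RNAs, and libraries were scaled by TMM. In 1 quasi-likelihood fit each group of arm and day had its own coefficient, with 11 residual degrees of freedom and a common coefficient of variation of 0.186, and p-values were adjusted by Benjamini-Hochberg over all genes tested. Membership followed the highest group mean, so calls were counted only for RNAs with a mean of at least 1 CPM over all libraries. Named RNAs were the 10 highest and 10 lowest called ones of the averaged comparison, 3 and 3 of each day, 6 and 6 of the UT course, 4 and 4 of the DOX course and of the change, the 10 most abundant, the 5 highest per kb, 8 of 1 arm, those beside the limit, nearest coding genes, and the lists, and some met by the rule are not named. LINC00665, LINC00667, LINC02506, LINC01278 and LINC00654 stand also for abundance, promoter or course. The LINC RNAs and the lists were chosen with earlier results of these data known.

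Groups at 0 counts were set to a floor of 3 counts per library for a lower bound, and with 1 to 3 counts on a side the ratio has an exact 95% interval. Both cover counting error only. Positions came from GENCODE 29 on GRCh38 and promoters from RefSeq (GRCh38.p14). Near-identical copies were found with BLAST 2.17.0. Alternatives were DESeq2 1.42.0 and its size factors, library sizes alone, limma-voom (limma 3.58.1), other filters, the mitochondrial rows kept, only the groups compared, the replicate number as a block, and each library left out, the lone library then being assumed to vary like the other groups. Days 12 and 14 alone were added after seeing the data. The fits were tested on simulated data. The scripts used matplotlib 3.10.9, scipy 1.17.1, pandas 2.3.3 and numpy 2.4.6 under Python 3.11.15, besides R 4.3.3.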

Additional observations from a re-analysis of the deposited data

Results flagged for a closer look

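Of the LINC RNAs whose DOX against UT log2 difference changed from day 12 to day 20 (11 up, 4 down), those with the 4 largest increases and the 4 decreases are given here. The change was tested as a contrast between the days in the edgeR fit with Benjamini-Hochberg adjustment over all genes. It went up by 9.41 for LINC00989 (adjusted p = 0.0015), 8.64 for LINC01694 (adjusted p = 0.0042) and 7.92 for LINC01311 (adjusted p = 0.0031). All 3 had 0 counts in both UT day 20 libraries, so these sizes depend on the prior count and are no bounds. LINC01311 was not called with only the groups compared in the fit (7.87). It went up by 4.91 for LINC02073 (adjusted p = 0.015), which had 1 count on DOX day 12, and this call was lost without DOX day 12 replicate 2 (4.06).

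The change was -2.78 for LINC01504 (adjusted p = 0.038), -2.28 for LINC00540 (adjusted p = 0.041), -1.72 for LINC00954 (adjusted p = 0.03) and -1.17 for LINC01529 (adjusted p = 0.021). LINC00954 (chr2:19868860-19885047) was at 4.78 and 5.48 CPM on UT day 12 and 8.53 and 9.22 on UT day 20, against 4.56 and 5.20, and 1.61 and 3.56 CPM in DOX. LINC00540 (chr13:22040975-22276524) was at 1.39 and 0.804 CPM on UT day 12 and 9.78 and 4.41 on UT day 20, against 0.941 and 0.644, and 1.33 and 0.746 CPM in DOX. LINC01504 (chr9:72305430-72343210) was at 0.545 and 0.908 CPM on UT day 12 and 3.41 and 2.67 on UT day 20, against 1.40 and 0.977, and 0.840 and 0.580 CPM in DOX. None of these 4 decreases was called with library sizes alone, at -2.48, -1.99, -1.43 and -0.87, or without any 1 of the 4 day 12 libraries. Among the day 20 libraries, those of LINC01504, LINC00540 and LINC01529 were also lost without UT replicate 1 (-2.59, -1.60 and -1.07), those of LINC01504, LINC00954 and LINC01529 without DOX replicate 1 (-3.07, -1.24 and -1.12), those of LINC01504 and LINC00540 without DOX replicate 2 (-2.54 and -1.93), and that of LINC00954 without UT replicate 2 (-1.66).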

How the results depend on the processing

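Counts of called LINC RNAs moved with the choice of libraries fitted, to more calls on some days and fewer on others. With only the groups compared in the fit, day 12 had 8 higher and 23 lower, day 14 had 15 and 41, day 18 had 18 and 16, day 20 had 10 and 7, and 2 changes of the difference went down. DESeq2 gave 8 lower on day 12 and 7 changes going down. Limma-voom gave 8 lower on day 12, 20 higher on day 14 and 13 higher on day 20. Shares of all genes are not given for these fits. With library sizes alone 0 changes went down. For RNAs with a mean of at least 2 CPM, 13 were higher on day 16 and 26 fell in the UT course. On days 12 and 14 alone 11 were higher and 27 lower, and LINC00989 was at -0.032. The cause of these shifts was not tested. Fewer RNAs were counted or fewer libraries fitted where so named. Leaving out 1 library gave 35 to 46 higher and 43 to 49 lower in the averaged comparison, 0 higher and 0 to 1 lower on day 12, 4 to 7 and 9 to 20 on day 14, 15 to 17 and 22 to 34 on day 16, 22 to 35 and 12 to 26 on day 18, 19 to 22 and 6 to 21 on day 20, and 0 to 10 changes going down. Same-numbered libraries of the arms had deviations that correlated at 0.0338 to 0.0938 by day. These low values do not decide whether the numbers pair the samples, since the TMM factor was higher in replicate 1 than in replicate 2 in every group. With a replicate block, 42 were higher and 46 lower in the averaged comparison, and all 76 values of named RNAs kept direction and call. Of the 76, 4 lost the call with library sizes alone, 4 with limma-voom and 2 with no filter, and 4 of the 73 tested lost it with only the groups compared, and none reversed under these. Leaving out a library ended 72 of 656 calls. Depth on UT day 20, with 0 counts allowing up to 0.433 CPM, limits statements on RNAs under that level.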
